A study of Mus musculus with 12 samples.

Results

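Stromal cells recovered from the marrow of tumour-bearing mice were compared with stromal cells recovered from the marrow of mice without a tumour. The comparison takes the 6 libraries labelled BM and HOMING, 3 of each, out of 12 in the series, and every gene is described. The cells were C57BL/6 mouse bone marrow stromal cells, called stem cells in the labels and given as wild type, that carry green fluorescent protein (GFP), so that they can be sorted out of a mouse. HOMING cells came from the marrow of mice that received the GFP cells alone under the skin. BM cells came from the marrow of mice that received the same GFP cells together with LLC, the Lewis lung carcinoma line, carrying red fluorescent protein. The other groups are used for levels alone: NC, GFP cells in primary culture, and TUMOR, GFP cells from the injection site of co-injected mice, with 3 libraries each. All cells were sorted before RNA was taken. The labels give no sort gate, purity, animal age or time of recovery, and do not say whether the replicates are separate animals, so p-values measure the spread between these samples, which may be technical.

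Marrow stromal cells secrete the chemokines, cytokines and matrix in which blood cells form. When amino acids run short or proteins misfold, kinases that act on the initiation factor eIF2 raise the transcription factor ATF4, which with its partners ATF3 and CHOP turns on amino acid import, amino acid synthesis and growth arrest genes. Interferon acts through its own transcription factors, among them IRF9, on a different set of genes, which limit viral growth and present antigen, and which are strong in blood cells.

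The BM and HOMING libraries held 43994944 to 45052938 expected counts in all, that is, reads assigned to transcripts by estimation, here added up for each gene. Of 21001 genes, 12314 reached 1 FPKM (fragments scaled to transcript length and library depth) in at least 3 of the 12 libraries and were tested. Log2 fold changes are BM minus HOMING from edgeR's quasi-likelihood test with a Benjamini-Hochberg adjusted p, and ± after a log2 value is its standard error. Calls needed both an adjusted p below 0.05 and a change of 2-fold or more, a log2 value of 1 or beyond. Rose and fell are used for called genes, higher or lower in BM than in HOMING, and levels are FPKM. The defining markers of stromal cells were found in part: vimentin (Vim) read 1438 FPKM in HOMING and 866 in BM and the homeobox factor Prrx1 83 and 106, whereas Thy1, Nt5e and Lepr did not pass the filter, with means of 0.0833 to 0.503 FPKM in BM and HOMING. The third HOMING library stood apart in its blood-cell RNA, as given below with results without it.

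With tumour co-injection 457 genes rose and 823 fell, or 3.71% and 6.68% of those tested, 10.4% together. The genes were split by their level in culture, since NC is in neither arm of the contrast. Of the 11061 genes whose NC mean was 1 FPKM or more, named culture-expressed here, 300 rose (2.71%) and 241 fell (2.18%), which is 4.89% called. Of 1253 genes under 1 FPKM in NC, 157 rose (12.5%) and 582 fell (46.4%), which is 59% called. These 1253 are a part of 9918 genes under 1 FPKM in NC, and they passed the filter through levels in the other groups, 609 having their highest mean in HOMING and 498 in TUMOR. A gene that passed only through a group where it is high had to differ, so both shares are given as backgrounds and not as a result. Culture-expressed genes had a median log2 fold change of 0.01, with quartiles of -0.20 and 0.24. Genes under 1 FPKM in NC had a median of -0.83, with quartiles of -3.45 and 0.22. Falls of at least 16-fold numbered 217 in that set and 4 among culture-expressed genes.

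**Figure D1:**
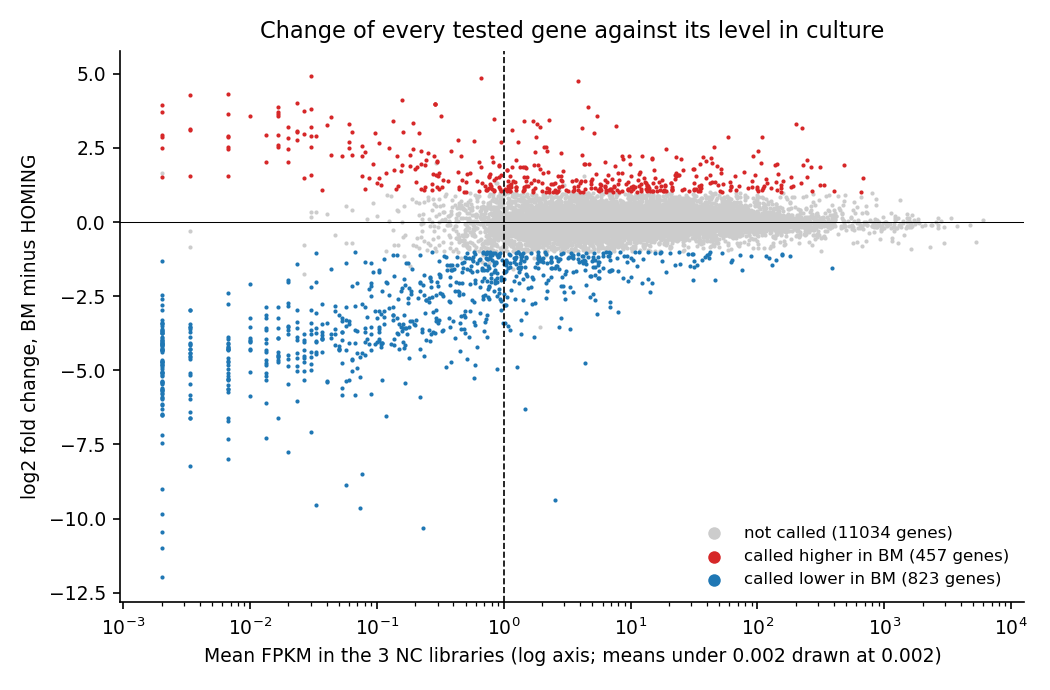
Log2 fold change (BM minus HOMING) of the 12314 tested genes against mean FPKM in the 3 NC libraries on a log axis. Each point is a gene, red points were called higher and blue points lower in BM, and the dashed line marks 1 FPKM. The cloud of falls widens to the left of the line, where 582 of 1253 genes fell.

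Within the culture-expressed genes, 154 of 4886 rose and 191 fell at 1 to 10 FPKM in NC, and 109 of 5363 rose and 42 fell at 10 to 100 FPKM. The group with the highest mean level is given for each set of called genes. Among the 300 culture-expressed genes that rose, 176 (58.7%) had their highest mean in BM and 104 (34.7%) in NC. Among the 241 that fell, 149 (61.8%) were highest in HOMING and 71 in TUMOR. Of the 582 falls under 1 FPKM in NC, 524 (90%) were highest in HOMING. Of the 157 rises there, 109 (69.4%) were highest in TUMOR, against 64.4% of the genes of that set that were not called. No gene that rose was highest in HOMING and none that fell was highest in BM, as the calls nearly require. The share over all 1253 genes, 39.7%, includes 609 genes highest in HOMING and is no like background. Libraries of BM and HOMING did not overlap in FPKM for 538 of the 541 called culture-expressed genes, nor for any of the 739 others. The calls select for such separation, so it adds no support to them.

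The largest falls were in transcripts of red cells. Alpha globin (Hba-a1), the oxygen carrier of red cells, read 1058, 994 and 1698 FPKM in HOMING and 0.88, 1.0 and 1.05 in BM. This was a log2 fold change of -10.31 ± 0.28 (adjusted p = 9.86e-11), with 0.23 FPKM in NC and 1.08 in TUMOR. Beta globin (Hbb-bs) went from 769, 788 and 1213 FPKM to 1.04, 1.24 and 1.10. Both globins were highest in the third HOMING library, and no BM library came near any HOMING library. The other red cell genes among the largest falls were Hbb-bt (log2 -8.88), Hba-a2 (-8.49), the haem enzyme gene Alas2 (-6.54) and Slc4a1, the band 3 anion exchanger of red cells, which had 4952 counts over the HOMING libraries and 5 over the BM libraries. The 8 tested red cell markers fell, with a median log2 fold change of -9.22. They are under 1 FPKM in NC and passed the filter through HOMING, so they had to differ, and 46.4% of tested genes under 1 FPKM in NC fell. Klf1 and Epb42 did not pass, at 0.42 and 0.72 FPKM in HOMING and 0.0433 and 0 in BM.

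Granulocyte and macrophage transcripts fell too. S100a8 and S100a9, the calprotectin subunits of neutrophils, fell by 5.26 and 5.31 on the log2 scale, from means of 834 and 800 FPKM to 21.3 and 19.8. Ngp, a neutrophil granule protein gene, read 234, 219 and 347 FPKM in HOMING and 5.0, 4.54 and 4.24 in BM. The 15 tested neutrophil markers fell, as did 10 of 11 monocyte and macrophage markers, 13 and 9 of these falls being of genes under 1 FPKM in NC, read against the same share. The exception was the lipopolysaccharide co-receptor gene Cd14 (log2 -0.87). The leukocyte antigen CD45 (Ptprc) read 5.94, 5.94 and 10.6 FPKM in HOMING and 0.31, 0.30 and 0.30 in BM. The macrophage adaptor Tyrobp fell by 4.56 and the integrin Itgam by 4.04 on the log2 scale. All 4 platelet markers, both eosinophil markers and both mast cell and basophil markers that could be tested fell as well. Of the lymphoid lists no T or NK cell marker passed the filter, with summed levels of 0.37 to 0.48 FPKM in BM and 0.91 to 1.81 in HOMING, and the only B cell marker tested, Ebf1, is also a stromal gene (log2 -0.03). The blood progenitor factors Spi1 and Myb read -4.29 and -1.23 and were the falls among 5 progenitor genes, and the antibody joining chain of plasma cells (Jchain) read -5.30. The osteoclast gene Acp5 and the muscle gene Mylpf read 0.11 and -0.11, each the only gene of its list tested. In bulk RNA, fewer cells of a type and less RNA per cell cannot be told apart.

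Summed over its 10 measured members, the red cell list came to 3.06 to 3.55 FPKM in BM, 2110 to 3474 in HOMING and 0.40 to 0.96 in NC, and 2 of the 10 were listed at 0 in every BM library. The 14 macrophage genes summed to 68.6 to 70.1 FPKM in BM, 374 to 589 in HOMING and 13.8 to 20.1 in NC. The 16 neutrophil genes summed to 412 to 437 FPKM in BM, 2678 to 3979 in HOMING and 348 to 445 in NC, where Lcn2, an iron-binding secreted protein that stromal cells also make, had a mean of 385. Genes under 1 FPKM in NC took 0.564%, 0.564% and 0.565% of the counts of the BM libraries and 1.56%, 1.53% and 2.21% of the HOMING libraries. The means were 0.564% ± 0.000926 (SD, n = 3) and 1.77% ± 0.387 (SD, n = 3), and no libraries overlapped. An exact two-sided permutation test gave p = 0.1, the smallest that 3 against 3 libraries allow.

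The third HOMING library had the highest marker sums of red cells, neutrophils and macrophages. Without it, 541 culture-expressed genes (304 higher, 237 lower) and 735 others (162 higher, 573 lower) were called. For 52 of the 58 lists with tested members the counts without it were the same, and in the other 6 lists they differed by 1 gene.

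**Figure D2:**
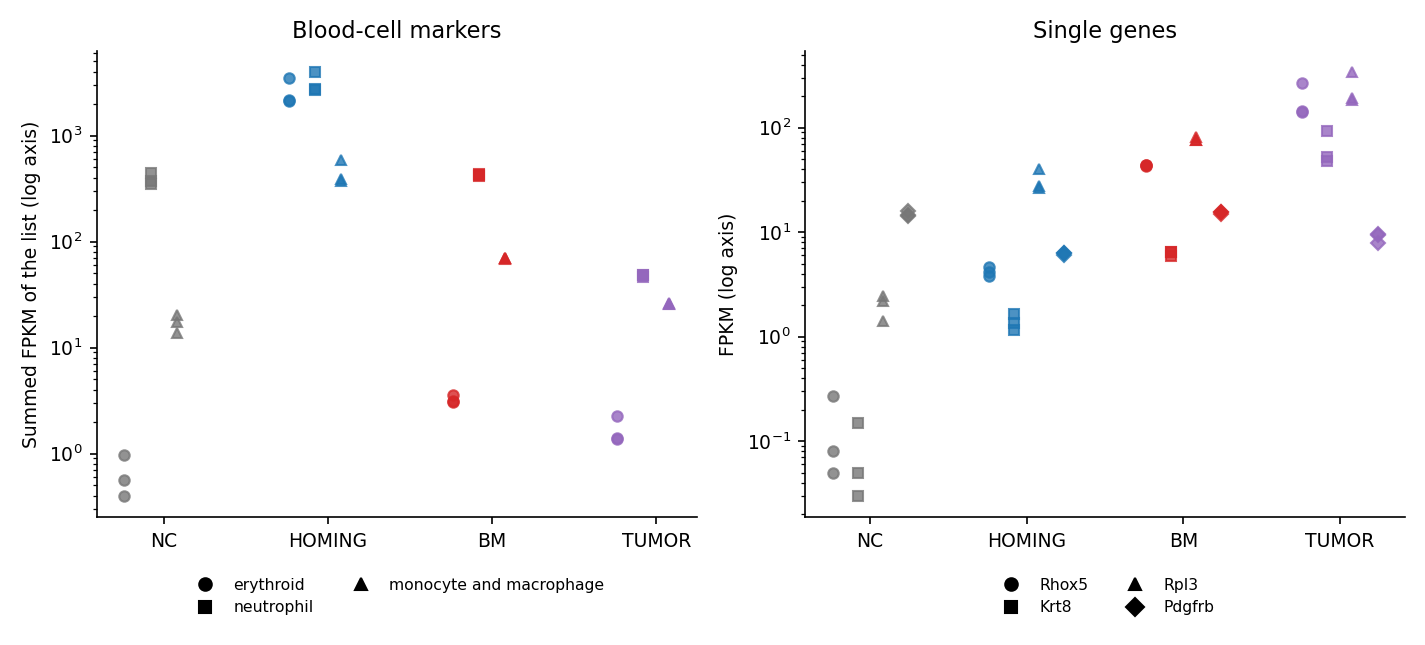
Left, summed FPKM of red cell, neutrophil and macrophage markers in each of the 12 libraries, on a log axis; right, FPKM of 4 single genes on a log axis. Points are libraries, placed and coloured by group, and shapes mark the list or gene, with Pdgfrb as the stromal gene. Red cell markers reach 2110 to 3474 in HOMING and 3.06 to 3.55 in BM, whereas Rhox5, Krt8 and Rpl3 step up from NC to HOMING, BM and TUMOR.

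Of the lists with 10 or more tested genes, the ATF4 and CHOP stress response had the largest share of rises. All 20 genes of the list were tested, 15 rose and none fell, where 2.71% of culture-expressed genes rose. Their median log2 fold change was 1.75. Chac1, a glutathione-degrading enzyme and textbook CHOP target, read 25.3, 23.3 and 23.3 FPKM in HOMING and 228, 239 and 227 in BM. The rise was 3.30 ± 0.09 on the log2 scale (adjusted p = 9.86e-11). Its mean was 201 FPKM in NC and 22 in TUMOR, so BM lay near culture and HOMING near the injection site. Atf3, a stress-induced partner of ATF4, read 13.2, 12 and 15.1 FPKM in HOMING and 96.8, 96.5 and 98.4 in BM (log2 2.88 ± 0.08, adjusted p = 1.2e-10). Trib3, a pseudokinase that feeds back on ATF4, read 18.5, 17.3 and 18.1 FPKM in HOMING and 93.5, 94.5 and 90.7 in BM (log2 2.40 ± 0.06, adjusted p = 9.86e-11). Herpud1, which serves the degradation of misfolded proteins at the endoplasmic reticulum, rose from 42.2 to 156 FPKM. None of these libraries overlapped between BM and HOMING.

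The remaining rises of the list were Ddit3, which encodes CHOP itself (52.2 to 186 FPKM), Ppp1r15a, the phosphatase subunit that reverses the eIF2 signal (52.2 to 200.5 FPKM), Nupr1, Stc2, Gpt2, Gdf15, Vldlr, Cebpg, Jdp2, Sesn2 and Fgf21. Fgf21, a secreted stress hormone, stayed low, at 0.107 FPKM in HOMING and 1.12 in BM. Atf4 read 308.5 FPKM in HOMING and 565 in BM, a log2 fold change of 0.90 ± 0.04 that is under the 2-fold limit. The other members under it were Ddit4 (0.92), Cebpb (0.87), Atf5 (0.42) and Tnfrsf10b (0.36). Summed over the list, levels were 2390 to 2528 FPKM in BM, 922 to 953 in HOMING, 2554 to 2703 in NC and 930 to 934 in TUMOR.

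The promoters of these genes were read from the RefSeq windows of build GRCm38.p6, 250 bases before to 50 after each start, matched to the genes by their Entrez number. TGATGNAA, the core of the C/EBP-ATF composite element that ATF4 binds, was searched on both strands. It was present for 32 of 224 culture-expressed genes that rose and have a window (14.3%), for 3 of 182 that fell (1.65%) and for 259 of 9512 tested genes (2.72%). Over all 27025 genes of the table the share was 4.51%. Of the 15 list members that rose, 8 held it: Chac1, Atf3, Trib3, Nupr1, Vldlr, Fgf21, Jdp2 and Herpud1. The list was drawn up from genes known for the ATF4 and CHOP response, so this count is description and adds no support. A match is a run of letters and no measure of binding. The 250 bases before the start of 2 of the largest rises are printed because they hold the match, in capitals (read on the opposite strand of the gene), at 193 bases before the start for Chac1 (chr2:119350992-119351241, plus strand) and 110 for Atf3 (chr1:191183334-191183583, minus strand).
Chac1: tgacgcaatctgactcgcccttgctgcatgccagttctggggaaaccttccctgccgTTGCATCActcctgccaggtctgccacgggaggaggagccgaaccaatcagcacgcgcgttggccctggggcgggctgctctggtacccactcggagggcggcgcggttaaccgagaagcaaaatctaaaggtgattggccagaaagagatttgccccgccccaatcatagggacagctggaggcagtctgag
Atf3: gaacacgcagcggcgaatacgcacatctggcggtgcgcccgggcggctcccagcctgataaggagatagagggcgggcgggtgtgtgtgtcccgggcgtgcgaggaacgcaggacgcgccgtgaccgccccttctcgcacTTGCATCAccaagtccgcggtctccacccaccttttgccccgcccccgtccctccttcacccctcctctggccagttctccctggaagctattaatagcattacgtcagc

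Genes of amino acid supply rose in part. Of 13 tested enzymes that make serine, proline, cysteine and asparagine or carry their carbon, 7 rose and none fell (median log2 1.04), where 2.71% of culture-expressed genes rose. Cth, the enzyme that makes cysteine from cystathionine, read 12.9, 12.2 and 12.3 FPKM in HOMING and 56.9, 54.4 and 61.4 in BM (log2 2.24 ± 0.07, adjusted p = 3.29e-10). Its mean was higher still in NC, at 91.7 FPKM, and 7.26 in TUMOR. Aldh18a1, the first enzyme of proline synthesis, rose from 40.9 to 102 FPKM, Mthfd2, of mitochondrial folate metabolism, from 59.4 to 169, and asparagine synthetase (Asns) from 108 to 216. Got1, Psph and Shmt2 were the other rises, and Phgdh, Psat1 and 4 others stayed within 2-fold, with log2 values of 0.19 to 0.88.

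Of 11 tested amino acid transporters 4 rose and none fell (median log2 0.84). Slc1a4, a carrier of neutral amino acids, read 8.44, 8.84 and 8.47 FPKM in HOMING and 38.5, 38.2 and 35.9 in BM (log2 2.16 ± 0.08, adjusted p = 1.23e-09). The arginine and lysine carrier Slc7a1, the glycine carrier Slc6a9 and the leucine carrier Slc7a5 rose by 1.68, 1.56 and 1.25 on the log2 scale. No aminoacyl-tRNA synthetase, the enzymes that load amino acids onto tRNA, was called on gene sums by edgeR, DESeq2 or limma among 19 tested. Aars was called when only the transcript with the highest mean FPKM was counted (log2 1.03). An unadjusted p below 0.05 was reached by 17, of which 16 were higher in BM. Their median log2 fold change was 0.68, against 0.01 for all culture-expressed genes, with Aars at 0.93 and Gars at 0.88. The chaperones of the endoplasmic reticulum, which respond to misfolded protein mainly through other sensors, had no call among 19 (median -0.08), 13 having an unadjusted p below 0.05, 6 of them higher in BM. Hspa5, the chaperone BiP, read 310, 307 and 315 FPKM in HOMING and 443, 430 and 447 in BM (log2 0.53), below its 723 in NC.

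**Figure D3:**
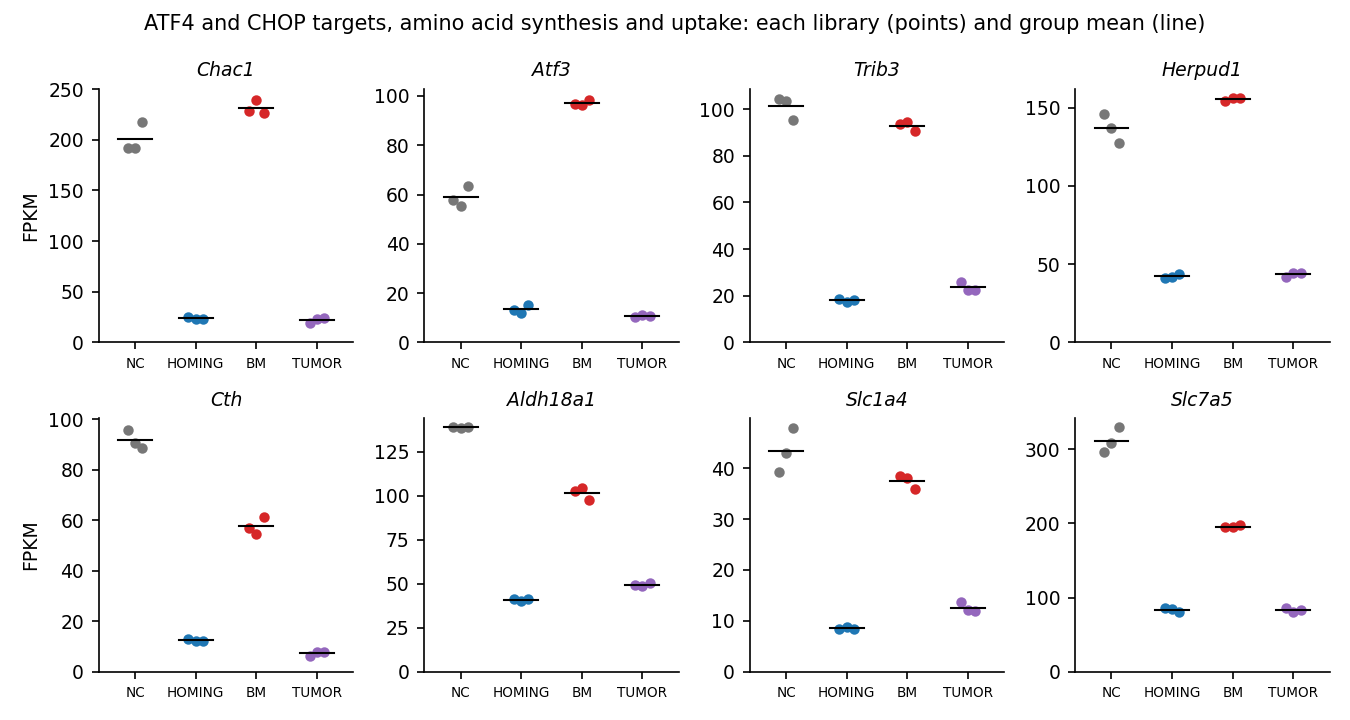
FPKM of 8 genes of the ATF4 and CHOP response, amino acid synthesis and amino acid uptake in each library (points), with group means (lines), by group. In each panel the 3 BM points lie above the 3 HOMING points, and TUMOR lies nearer HOMING than BM; Chac1 has means of 231 and 24 in BM and HOMING.

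BM and HOMING levels were also set against NC, which both comparisons share. BM minus NC was 0.12 on the log2 scale for Chac1 (adjusted p = 0.179), 0.09 for Sesn2, 0.10 for Herpud1 and -0.20 for Trib3, whereas HOMING minus NC was -3.18, -2.46, -1.81 and -2.60. Other members differed more from culture: BM minus NC was 0.64 for Atf3 (adjusted p = 9.13e-06), 2.32 for Gdf15 and 0.69 for Stc2, and -1.21 for Nupr1 and -0.59 for Ddit3. Among called amino acid genes BM minus NC ran from -1.11 for Psph and -1.02 for Slc6a9, through -0.75 for Cth and Slc7a5, to -0.14 for Slc7a1 and -0.08 for Shmt2 (adjusted p = 0.127). HOMING minus NC was -2.99 for Cth and -2.01 for Slc7a5. Of the 15 rises of the stress list 8 had their highest mean in BM and 7 in NC, and of the 7 synthesis genes 6 in NC.

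Gadd45a, a growth arrest and DNA damage protein, had the smallest adjusted p among the named genes, with 29.6, 31.2 and 29.4 FPKM in HOMING and 255, 254 and 282 in BM (log2 3.16 ± 0.06, adjusted p = 5.21e-12). Sesn2, which restrains growth signalling when leucine is short, rose from 9.0 to 51.4 FPKM. With Plk2 and Bbc3 these were the 4 rises among 20 tested p53 target and growth arrest genes, and none fell (median log2 0.14), where 2.71% of culture-expressed genes rose. Sesn2 is also counted in the ATF4 list, and the Bbc3 call (1.05) was lost without the third BM library (0.98). The best-known p53 target, Cdkn1a, read 43.4 FPKM in HOMING and 29.3 in BM (log2 -0.54). Txnip, which binds thioredoxin and limits glucose uptake, rose from 21.0, 20.7 and 25.4 FPKM to 159, 154 and 163 (log2 2.86 ± 0.09, adjusted p = 3e-10). Its relative Arrdc4 rose as well (log2 1.11) and Arrdc3 fell by 1.21. The Arrdc4 call was lost with limma (0.83 and 0.87) and with the transcript of highest mean FPKM (0.67).

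Of 17 immediate early factors 3 rose and none fell. Myc, a growth-driving transcription factor, read 95.5, 96.5 and 97.7 FPKM in HOMING and 395, 411 and 392 in BM (log2 2.08 ± 0.11, adjusted p = 1.53e-08). Its NC mean was 247, so it was also higher in BM than in culture (log2 0.61). Egr1 rose from 19.2 to 77.8 FPKM and Klf4 from 11 to 42.7, while Fos and Dusp1 read -0.34 and -0.07. No cell cycle gene was called by edgeR, DESeq2 or limma among 24 (median log2 -0.06, with 11 at an unadjusted p below 0.05). The replication clamp Pcna read 258, 259 and 248 FPKM in HOMING and 253, 255 and 257 in BM, and cyclin D1 (Ccnd1) -0.76. Respiratory chain subunits had no call by these tools among 20 (median -0.06, with 12 at an unadjusted p below 0.05).

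Of 20 cholesterol synthesis and uptake genes 5 rose and none fell (median log2 0.63). Msmo1 rose from 21.7 to 64.2 FPKM, and Fdps, Cyp51 and Idi1 rose by 1.07 to 1.17 on the log2 scale. Of 15 hypoxia-induced genes 4 rose and 2 fell. Vegfa, the vessel growth factor, read 59.4, 59.4 and 59.0 FPKM in HOMING and 119, 124 and 121 in BM (log2 1.07 ± 0.04, adjusted p = 9.68e-10), Ndrg1, Hif1a and the carbonic anhydrase Car12 rose by 1.21, 1.23 and 2.03, and Ankrd37 and adrenomedullin (Adm) had log2 values of -1.81 and -1.83. Glycolysis genes gave 1 call among 18, a fall of the glucose carrier Slc2a3 (median 0.08). That call was lost with the transcript of highest mean FPKM (log2 -0.47) and with limma at a pseudocount of 1 (-0.79). Of 17 NRF2 antioxidant genes the metallothionein Mt2 rose (log2 1.00) and the glutathione transferase Gsta4 fell by 1.06 (median -0.44). The Mt2 call lies at the limit and was lost under 10 of 24 refits, DESeq2 (log2 0.99) and limma (0.97) among them. Gsta1, a related transferase outside that list, read 61.1, 67.0 and 57.8 FPKM in HOMING and 8.32, 8.10 and 8.43 in BM (log2 -2.87 ± 0.12, adjusted p = 2.09e-09), with 44.6 in TUMOR. The inducible heat shock genes Hspa1a and Hspa1b fell by 1.44 and 1.31, the 2 calls among 11 heat shock proteins.

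Secreted signals of stromal cells held both rises and falls. Tnfaip6 (TSG-6), a hyaluronan-binding protein known for damping inflammation, read 2.88, 3.06 and 2.84 FPKM in HOMING and 26.4, 25 and 29.6 in BM (log2 3.23 ± 0.10, adjusted p = 3.15e-10). BM also exceeded the 7.63 FPKM of NC (log2 1.74), and TUMOR read 2.32. In the same list Ptx3, a soluble pattern recognition protein, rose from 124 to 343 FPKM and Ptgs2, the inducible prostaglandin enzyme COX-2, from 90.2 to 200. Has2 fell by 1.36 and the prostaglandin receptor gene Ptger4 by 1.54, Has1 is described with the border genes, and prostaglandin E synthase (Ptges) read 0.28. Of the 13 tested members 11 are culture-expressed, of which 3 rose and 1, Has1, fell, where 2.71% and 2.18% of such genes did. Has2 and Ptger4 are the 2 members under 1 FPKM in NC, where 46.4% of tested genes fell.

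The CXC chemokine Cxcl1, which draws neutrophils, read 480, 483 and 513 FPKM in HOMING and 1142, 1160 and 1272 in BM (log2 1.31 ± 0.15, adjusted p = 7.75e-06), above 221 in NC and 117 in TUMOR. It was the only rise among 7 tested genes of its list, where 5 fell. Of the 3 culture-expressed members 1 rose and 1 fell, where 2.71% and 2.18% of such genes did. All 4 others fell, where 46.4% did. The falls were Cxcl2, Cxcl3, the platelet chemokines Pf4 and Ppbp, and the neutrophil receptor gene Cxcr2. Cxcl3 read 90.3, 86.3 and 134 FPKM in HOMING, 21.6, 24.4 and 23.5 in BM and a mean of 0.23 in NC. Without the third HOMING library 4 genes of this list fell in place of 5. Of 13 CC chemokine and receptor genes 2 rose and 7 fell. Of the 6 culture-expressed members 2 rose and 1 fell, and of the 7 others 6 fell, against backgrounds of 2.71%, 2.18% and 46.4%. Ccl8 rose from 5.76 to 14.7 FPKM and Ccl20 from 0.273 to 4.0. Ccl3 and Ccl4, which leukocytes make, fell by 3.06 and 3.65, and Ccl5 by 1.63. Ccl2, the main monocyte attractant, read 1249 FPKM in HOMING and 2412 in BM, a log2 fold change of 0.97 just under the limit. Ccl3, Ccl4 and Cxcl3 have means of 0.23 to 0.257 FPKM in NC and fall beside the leukocyte markers given above, whose part in these falls was not tested.

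Among interleukin 6 family genes the ligand Lif and the receptor Osmr rose, by 1.62 and 1.36 on the log2 scale, and the leukocyte ligand Osm fell by 2.81, of 14 tested. Both rises were among 12 culture-expressed members, and Osm is under 1 FPKM in NC. Interleukin 6 itself read 19.3 and 32.4 FPKM (log2 0.78). Of 6 colony-stimulating factors and related cytokines G-CSF (Csf3), which drives neutrophil formation, read 51.9, 47.1 and 76.1 FPKM in HOMING and 5.84, 5.72 and 6.76 in BM (log2 -3.23 ± 0.18, adjusted p = 1.66e-08), with 0.10 in NC. GM-CSF (Csf2) was called as a rise from 0.937 to 1.86 FPKM at an adjusted p of 0.0494 in edgeR, a call lost under 19 of 24 refits, with DESeq2 (0.0794) and without any single BM or HOMING library (0.0857 to 0.116) among them. In the interleukin 1 family of 8 genes 3 rose and 4 fell. Of the 5 culture-expressed members 3 rose and 1 fell, where 2.71% and 2.18% of such genes did. All 3 others fell, where 46.4% did. The ligands Il1b and Il1a fell by 2.85 and 1.45 and the antagonist Il1rn by 2.58, Il18 read -3.34, while the receptor chains Il1r1, Il1rap and Il1rl1 rose by 1.28, 1.02 and 1.77. The Il1rap call was lost under 5 of 24 refits, among them limma (0.83 and 0.96) and those without the first (0.96) or the second (0.97) HOMING library. Il1rl1, the receptor of interleukin 33, read 50.4 FPKM in HOMING and 168 in BM. Il1a, Il1b, Il1rn and Csf3 were highest in the third HOMING library, as were the leukocyte marker sums. The part of leukocytes in these falls was not tested.

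Of 9 mediators of T cell suppression 6 fell and none rose. Among the 5 culture-expressed members 2 fell, and the 4 others fell, where 2.18% and 46.4% of such genes did. PD-L1 (Cd274) read 17.9, 17.8 and 26.2 FPKM in HOMING and 0.96, 0.89 and 1.13 in BM (log2 -4.34 ± 0.18, adjusted p = 2.36e-09), with 0.45 in NC, and interleukin 10 and Tgfb1 had log2 values of -5.37 and -2.0. These genes are also made by leukocytes. Nitric oxide synthase (Nos2) read 33.3 and 64.3 FPKM (log2 0.98), and galectin 1 (Lgals1) 0.13. Without the third HOMING library 1 gene of this list, Nos2, was called as a rise. Niche factors had 2 falls among 11, Cxcr4 (-3.92) and Icam1 (-1.39). These are the only tested members under 1 FPKM in NC, where 46.4% of tested genes fell. None of the 9 culture-expressed niche factors was called. Among them, the homing chemokine Cxcl12 read 29.9 FPKM in HOMING and 21.9 in BM (log2 -0.42). Growth factors held 1 rise among 6 genes of the insulin-like growth factor axis. The TGF-beta family had 1 rise and 2 falls among 15 genes, and angiogenic genes 3 rises and 2 falls among 14. Of culture-expressed genes 2.71% rose and 2.18% fell. Both angiogenic falls were among the 3 members of that list under 1 FPKM in NC, where 46.4% of tested genes fell. The rises beside Vegfa were Igfbp3, which carries insulin-like growth factor (10.9 to 48.3 FPKM), activin A (Inhba, 29.2 to 69.5 FPKM), and the EGF receptor ligands Areg and Ereg. Areg read 1.02, 0.91 and 1.09 FPKM in HOMING and 4.99, 5.96 and 6.27 in BM (log2 2.53 ± 0.41, adjusted p = 0.000194). Id1, a target of BMP signals, fell by 1.15, and the angiogenic factors Pgf and Fgf2, both under 1 FPKM in NC, fell by 1.77 and 1.38. The Pgf call was lost with limma at a pseudocount of 1 (log2 -0.43) and with the transcript of highest mean FPKM (-1.37). The complement proteases C1ra and Masp1 rose by 1.09 and 1.61, C1s1 by 1.05 (1.00 and just under the limit without the third HOMING library), and C1qb, a macrophage product, had 203 counts in HOMING and 3 in BM.

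**Figure D4:**
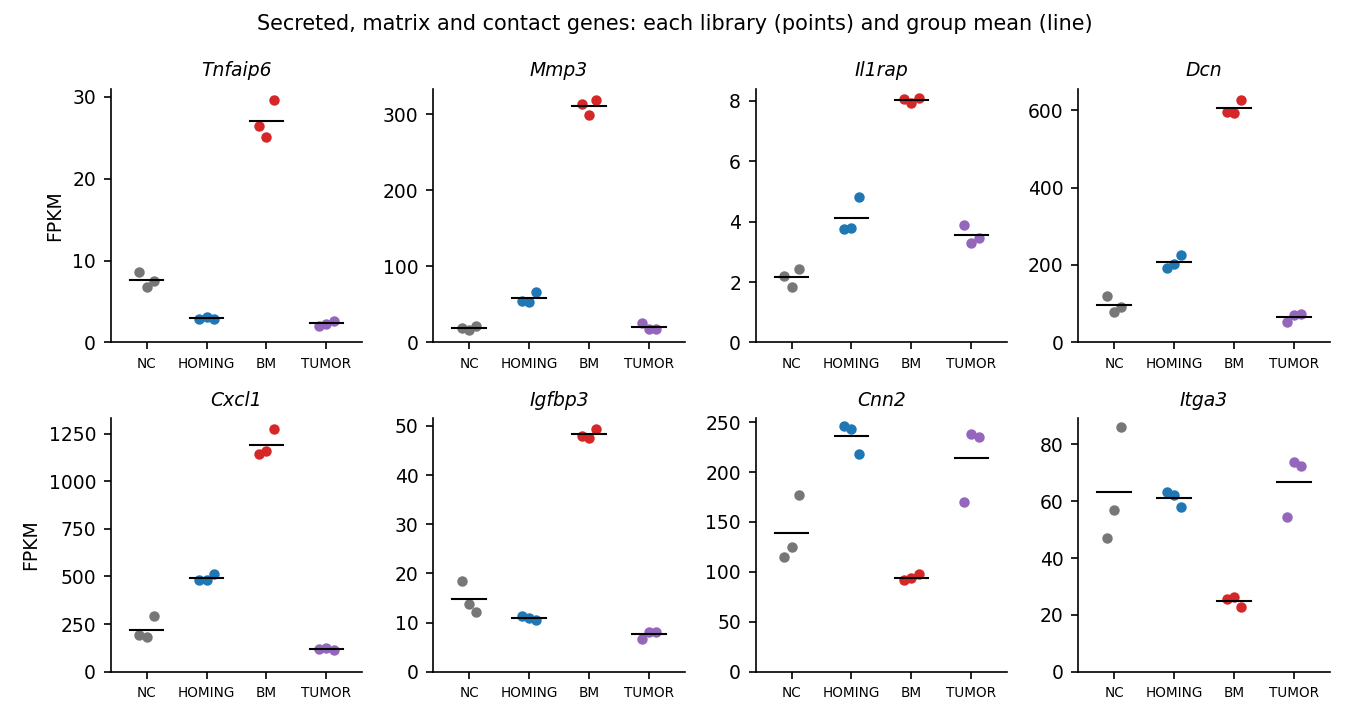
FPKM of 8 secreted, matrix and contact genes in each library (points), with group means (lines), by group. Tnfaip6, Mmp3, Il1rap, Dcn, Cxcl1 and Igfbp3 have all 3 BM points above every other library, and Cnn2 and Itga3 have all 3 BM points below.

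Matrix-degrading and matrix genes rose in a few members. Mmp3 (stromelysin 1) read 54.0, 52.9 and 66.3 FPKM in HOMING and 313, 299 and 318 in BM (log2 2.45 ± 0.15, adjusted p = 3.94e-08), against 19.1 in NC and 20 in TUMOR. Mmp10 and Mmp2 rose by 1.21 and 1.13, while the neutrophil collagenase Mmp8 and gelatinase Mmp9 fell by 3.55 and 2.31, of 12 tested. Of the 8 culture-expressed members 2 rose and none fell, where 2.71% and 2.18% of such genes did. Of the 4 others 1 rose and 2 fell, where 12.5% and 46.4% did. Adamts1, an aggrecan- and versican-cleaving protease, rose from 7.42 to 34.0 FPKM, with Adamts4 and Adamts6 (1.20 and 1.06), and none of the 10 genes of its list fell. Of the 8 culture-expressed members 2 rose, where 2.71% of such genes did, and of the 2 others 1 rose, where 12.5% did. The Adamts6 call was lost with limma at pseudocounts of 1 and 0.1 (0.62 and 0.97), and the Adamts4 call with limma at 1 (0.81). The protease inhibitor Serpine2 rose by 1.22. Of 15 collagens Col5a3 and Col3a1 rose, by 1.82 and 1.16, and Col1a1 read 0.27. The proteoglycan decorin (Dcn) read 192, 204 and 225 FPKM in HOMING and 595, 594 and 626 in BM (log2 1.58 ± 0.14, adjusted p = 9.32e-07), above 96.1 in NC and 65.7 in TUMOR. The elastic fibre protein Fbln5 rose by 1.68, and the matricellular factor Ccn4 rose from 7.92 to 35.7 FPKM, thrombospondin 1 (Thbs1) fell by 1.45 and Ccn5 by 1.22. Steap4, a metal reductase, was among the largest rises (5.33 to 24.8 FPKM, 0.707 in TUMOR), as was Tmem74, a lysosomal membrane protein of autophagy (1.14 to 10 FPKM).

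Few contractile, adhesion or identity genes were called. Calponin 2 (Cnn2) and the myosin light chain Myl9 fell by 1.29 and 1.18 among 9 contractile genes, and Acta2 read 0.30. The laminin receptor integrin Itga3 read 63.1, 62.2 and 57.8 FPKM in HOMING and 25.4, 26.3 and 22.8 in BM (log2 -1.27 ± 0.19, adjusted p = 8.67e-05), Itgb3 fell by 2.15 and Itga7 rose by 1.54. Of 15 stromal identity genes Pdgfrb, a receptor of mesenchymal cells, rose from 6.21 to 15.4 FPKM and endoglin (Eng) from 2.34 to 4.75. The Eng call (log2 1.04) was lost without the first BM (0.99) or the first or second HOMING library (0.96 each). No osteoblast or chondrocyte gene was called by edgeR, DESeq2 or limma among 5, of which 3 had an unadjusted p below 0.05, with Runx2 at 0.82. The adipocyte regulator Pparg fell by 1.18. Fabp4 rose by 1.07, a call lost without the third HOMING (0.92) or the third BM library (0.94).

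The falls among culture-expressed genes were led by interferon genes and leukocyte genes. Rsad2 (viperin), an antiviral enzyme, read 25.2, 23.6 and 38.9 FPKM in HOMING and 0.49, 0.36 and 0.32 in BM (log2 -6.31 ± 0.24, adjusted p = 1.23e-09), with 1.48 in NC. Isg15, a ubiquitin-like modifier, read 49.7, 43.2 and 58.0 FPKM in HOMING and 1.57, 1.66 and 2.29 in BM (log2 -4.74 ± 0.18, adjusted p = 1.17e-09), with 4.35 in NC. Ifit1, which binds viral RNA, fell from 23.0 to 2.61 FPKM, below its 5.46 in NC, and Oasl1 from 21.6 to 2.60. Against NC, BM was lower for Rsad2 (log2 -1.86), Isg15 (-1.32), Ifit1 (-1.15) and Oasl1 (-1.70), and HOMING higher (4.45, 3.42, 1.96 and 1.32), both from the same NC libraries. Other interferon genes were higher in BM than in NC, among them Irf7 (1.28), Ifit3 (0.63) and Usp18 (2.59).

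Of 26 tested interferon-stimulated genes 24 fell and none rose (median log2 -3.91). Of the 12 that are culture-expressed 10 fell (median -1.70), where 2.18% of such genes fell, and all 14 others fell (median -4.66), where 46.4% did. Irf1 and Ifit2 were not called, at 0.11 and -0.16. Of the factors that carry the interferon signal, Stat2 fell by 1.86 and Irf9 by 1.20 on the log2 scale, and Irf7 went from 33.1 to 1.33 FPKM (log2 -4.61). Summed, the list came to 97.6 to 99.1 FPKM in BM, 369 to 526 in HOMING, 81.3 to 83.7 in NC and 86.5 to 86.7 in TUMOR. The red cell and leukocyte marker sums given above move with it, with the highest sum in the third HOMING library for both, and their part in the fall was not tested.

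The interferon element GAAANNGAA, again on both strands, was in the window of 28 of 182 culture-expressed genes that fell (15.4%), 84 of 430 other genes that fell (19.5%), 19 of 224 culture-expressed genes that rose (8.48%) and 822 of 9512 tested genes (8.64%). Over all genes of the table the share was 9.76%. Of the 18 interferon genes that fell and have a window 13 held it (72.2%). The list was drawn up from genes known to respond to interferon, so this share is description and adds no support. GGGANTTCC, a kappa B element, was in 1.79% of the rises and 2.20% of the falls of culture-expressed genes, against 2.71% of tested genes. For CACGTG, an E-box, the shares were 12.1% and 9.89%, against 12%. The 250 bases before the start of 3 of the largest culture-expressed falls among interferon genes are printed, with the matches in capitals, for Rsad2 (chr12:26456453-26456702, minus strand) with 1 match on the opposite strand, for Isg15 (chr4:156200819-156201068, minus strand) with 3 overlapping matches on the gene's strand, and for Ifit1 (chr19:34640639-34640888, plus strand) with 3 on the opposite strand, of which 2 overlap.
Rsad2: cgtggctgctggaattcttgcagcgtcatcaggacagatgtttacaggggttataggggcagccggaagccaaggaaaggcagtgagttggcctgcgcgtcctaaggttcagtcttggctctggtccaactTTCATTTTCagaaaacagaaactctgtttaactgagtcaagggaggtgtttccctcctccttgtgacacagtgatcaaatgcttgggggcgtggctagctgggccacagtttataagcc
Isg15: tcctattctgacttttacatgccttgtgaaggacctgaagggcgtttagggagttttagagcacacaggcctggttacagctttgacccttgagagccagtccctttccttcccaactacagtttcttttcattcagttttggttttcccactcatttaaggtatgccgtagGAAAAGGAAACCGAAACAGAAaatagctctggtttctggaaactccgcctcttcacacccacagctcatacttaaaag
Ifit1: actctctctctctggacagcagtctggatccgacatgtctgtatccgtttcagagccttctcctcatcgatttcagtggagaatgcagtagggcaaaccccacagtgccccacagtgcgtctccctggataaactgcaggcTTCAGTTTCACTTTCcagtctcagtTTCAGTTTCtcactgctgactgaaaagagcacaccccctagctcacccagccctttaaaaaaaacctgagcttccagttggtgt

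Antigen presentation genes fell in 8 of 15 and rose in none (median log2 -1.37). Of the 8 culture-expressed members 2 fell (median -0.78) and of the 7 others 6, where 2.18% and 46.4% of such genes fell. The leukocyte marker sums given above move with them, and their part was not tested. The class II chaperone Cd74 read 22.1, 21.5 and 34.4 FPKM in HOMING and 1.74, 2.06 and 2.36 in BM (log2 -3.63 ± 0.26, adjusted p = 1.48e-07). The peptide transporter Tap1 and the immunoproteasome subunits Psmb8 and Psmb9 had log2 fold changes of -3.38, -3.58 and -4.07, whereas the class I chain H2-K1 read -0.24 and B2m -0.69. Of 8 Schlafen genes, a family partly driven by interferon, 4 fell and 1 rose. Of the 3 culture-expressed members 1 fell, where 2.18% of such genes did. Of the 5 others 3 fell and 1 rose, where 46.4% and 12.5% did. Slfn4 read 20.8, 19.6 and 28.8 FPKM in HOMING and 0.09, 0.10 and 0.08 in BM (log2 -7.99 ± 0.26, adjusted p = 3.34e-10), and Slfn1 fell by 6.62. Slfn3 rose, from 0.83 to 2.76 FPKM. NF-kB targets had 2 falls among 15 (Irak3, -3.46, and Icam1), and the inhibitor Nfkbia read 0.20. These falls are the only 2 tested members under 1 FPKM in NC, where 46.4% of tested genes fell. None of the 13 culture-expressed members was called. The other large falls among culture-expressed genes are leukocyte genes as background: the phosphatase Ptpn6 (SHP-1), the formin Fmnl1, parvin gamma (Parvg), Lst1, Ifitm6 and the neutrophil peptide cathelicidin (Camp) fell by 3.22 to 4.89 on the log2 scale. Their means in NC were 1.03 to 3.32 FPKM.

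**Figure D5:**
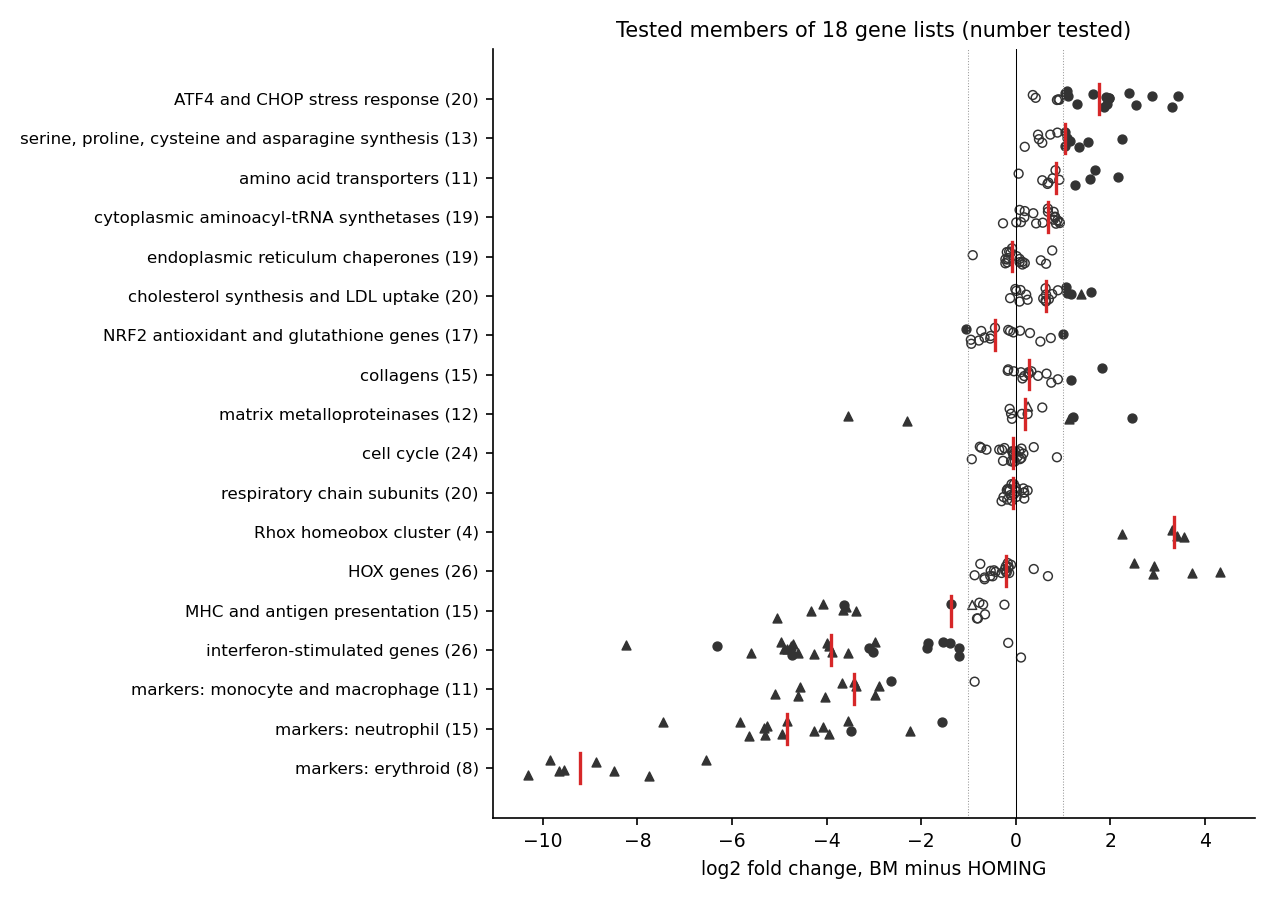
Log2 fold change (BM minus HOMING) of each tested member of 18 gene lists. Circles are genes of at least 1 FPKM in NC, triangles genes under it, filled symbols called genes, red bars list medians, and dotted lines mark 2-fold; the stress list has its median at 1.75, the interferon list at -3.91 and the red cell markers at -9.22.

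Of genes under 1 FPKM in NC that rose in BM, 69.4% had their highest mean at the injection site. For genes of that set that were not called the share was 64.4%. Rhox5, an X-linked homeobox gene of the Rhox cluster, read 4.20, 3.82 and 4.6 FPKM in HOMING and 43.0, 43.5 and 44.3 in BM (log2 3.40 ± 0.25, adjusted p = 2.21e-07). Its mean was 0.133 in NC and 185 in TUMOR. All 4 tested Rhox genes rose, Rhox2d by 3.55, Rhox2h by 3.31 and Rhox2g by 2.24, and all had their highest mean in TUMOR. These are near-identical copies, so reads may be split among the Rhox2 genes. All 4 are under 1 FPKM in NC, where 12.5% of tested genes rose, and high levels in BM or TUMOR let them pass the filter. Of 26 HOX genes, which record position along the body, 5 rose and none fell, and all 5 are of the Hoxd cluster and under 1 FPKM in NC. They are the only tested HOX genes under that level, where 12.5% of tested genes rose. Hoxd10 read 0.08, 0.05 and 0.10 FPKM in HOMING, 1.59, 1.32 and 1.64 in BM and 4.69 in TUMOR, whereas the 21 culture-expressed genes, all of the Hoxa, Hoxb and Hoxc clusters, had log2 values of -0.87 to 0.68 (median -0.23).

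Keratin 8 (Krt8), of simple epithelium, read 1.34, 1.15 and 1.64 FPKM in HOMING and 5.96, 6.44 and 6.47 in BM (log2 2.22 ± 0.29, adjusted p = 2.76e-05), with 0.0767 in NC and 64.6 in TUMOR. Keratin 19 (Krt19) fell, from 4.61 to 0.37 FPKM. The epithelial markers Epcam, Cdh1 and Krt18 had means of 0.00333 to 0.0633 FPKM in BM and HOMING and of at most 0.0633 in TUMOR. The 8 epithelial genes summed to 6.39 to 7.08 FPKM in BM, 6.13 to 6.56 in HOMING and 70.1 to 115 in TUMOR. Rhox5 and Krt8 also exceeded NC in HOMING (log2 4.79 and 4.05), from mice that received no tumour cells. Both genes had their lowest mean in NC, then HOMING, BM and TUMOR in rising order. Whether tumour RNA, or carry-over between samples, takes part in these levels was not tested. The imprinted gene Peg3 followed the same order, at 0.0167 FPKM in NC, 0.04 in HOMING, 0.247 in BM and 1.56 in TUMOR.

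Of 20 ribosomal proteins Rpl3 rose, at 27.7, 26.2 and 40.1 FPKM in HOMING, 76.7, 76.4 and 82.1 in BM, 2.01 in NC and 239 in TUMOR, and the list's median was -0.01. Ribosomal protein genes have many pseudogene copies that can share their reads. Further named rises under 1 FPKM in NC had their highest mean in BM: Il13ra2, a decoy receptor of interleukin 13 (2.97 to 8.47 FPKM, 0.247 in TUMOR), the mucin Muc1 (2.42 to 5.81, 1.04 in TUMOR) and the RNase P RNA-like gene Rprl2 (3.46 to 7.92, 1.69 in TUMOR). Of the endothelial markers, Cdh5 rose from 0.447 to 1.35 FPKM and Pecam1, which leukocytes share, fell from 1.46 to 0.16.

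At the border of 1 FPKM in NC lay Aqp5 (a mean of 1) and Has1 (1.003) just above, and Lyz2 (0.993) and Igf2bp1 (0.997) just below. Aqp5 and Igf2bp1 fell by 1.92 and 1.41, and Lyz2, lysozyme of macrophages, from 71.4 to 6.56 FPKM. Has1, a hyaluronan synthase, was called as a fall on counts (log2 -1.69), yet its FPKM were 1.5, 1.66 and 1.85 in HOMING and 1.52, 1.98 and 1.65 in BM. It is 1 gene of 1280 called and the only one whose mean FPKM moved against its counts. A long transcript without a RefSeq name, 32909 bases, held 1014 to 1054 of its counts in HOMING and 173 to 235 in BM, whereas the RefSeq transcript read 0.70, 0.58 and 0.86 FPKM in HOMING and 1.33, 1.76 and 1.41 in BM. The culture-expressed gene Tmub1, named after its values were seen, fell furthest among such genes in the plot of all genes and was listed at 0 in all 3 BM libraries and at 1.09, 1.06 and 2.36 FPKM in HOMING.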

How the data were processed

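RNA was sequenced from 12 libraries, 3 in each of 4 groups, which were taken from the sample titles. Per the labels, RNA of sorted, frozen cells was extracted by Trizol, and the Illumina TruSeq kit served for libraries. Bowtie 0.12.2 and build mm8 are named in the submitters' processing notes. The counting program, like its annotation, was not given in the sources used here. Deposited by the authors were expected counts (estimated reads per transcript, not normalized) and FPKM (scaled to transcript length and library depth) for each transcript. Both were summed per gene, with transcripts not listed set to 0. Symbols came from RefSeq for 19629 of 19679 Entrez numbers, and promoter windows from the RefSeq table of GRCm38.p6, so no coordinates were joined between builds. Library totals were 43232145 to 46166519, which leaves counting error small for all but the lowest genes.

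Gene counts were rounded, scaled by TMM and fitted with edgeR 4.0.16 (R 4.3.3) in a quasi-likelihood model of all 4 groups, with two-sided F-tests and Benjamini-Hochberg adjustment over 12314 genes. Standard errors are the log2 fold change over the root of F. The fit was checked on simulated data with known fold changes. The genes named are, among called genes without overlap and reaching 5 FPKM on average in the higher group, the 12 largest rises and falls of culture-expressed genes and the 8 largest of the others, without predicted genes and receptor segments. Further named genes are up to 4 called members of each list by adjusted p, or the 2 highest where none was called, and 2 called genes on each side of the border. Other list members are named after their values were seen. Some genes that the rule names are not reported here. The comparison, the 59 gene lists (14 of markers) and the motifs were chosen with earlier results of these data known. Of 823 list entries 807 matched the files. Alternatives were DESeq2 1.42.0, limma 3.58.1 on log2(FPKM + pseudocount), other scalings, filters, borders and fold limits, smaller sets of libraries, a replicate block, the leading transcript, and leaving out each library. Leaving out the third HOMING library for list counts was added after seeing the data. Replicates of a group differed by more than sampling noise (chi-square per degree of freedom of 2.86 to 43.3). Tables were made with Python 3.11.15, pandas 2.3.3 and scipy 1.17.1, and plots with matplotlib 3.10.9.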

Additional observations from a re-analysis of the deposited data

How the results depend on the processing

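Counts of called genes kept within 1.5 times of the reported ones under DESeq2, limma with a pseudocount of 0.1, the other scalings, the smaller sets of libraries, the leading transcript and the other borders. With each library left out, 1276 to 1298 genes were called, 533 to 553 of them culture-expressed. Limma on log2(FPKM + 1), which shrinks low genes, called 227 rises, 351 culture-expressed genes (187 rises) and 40 rises under 1 FPKM in NC. Without a filter, so with more genes tested, 2581 genes were called (828 higher, 1753 lower), of which 2036 (508 and 1528) were under 1 FPKM in NC. With edgeR's filterByExpr these were 2248 (744 and 1504) and 1703 (431 and 1272). With no minimum fold change 7158 genes passed (3608 and 3550), of which 6209 were culture-expressed (3371 and 2838), and 237 rises were under 1 FPKM in NC. At a log2 limit of 1.5 there were 832 calls (214 rises), 204 of them culture-expressed (101 and 103). The share of genes under 1 FPKM in NC differed by -1.79 percentage points in summed FPKM, against -1.2 in counts. The direction of Has1 reversed under limma (0.02 and 0.03 with pseudocounts of 1 and 0.1) and with the leading transcript (1.10). Of 177 named genes, 144 kept their direction and side of the threshold under all 24 refits. The labels do not say that a replicate number marks a shared animal or day, and same-numbered libraries did not deviate together (r = -0.092, 0.081 and -0.098 for the pairs 1 to 3). With the replicate block 1285 genes were called, 545 of them culture-expressed. Without the labels of animals or of the gate, the spread between mice and the purity of the sort are not known, and low genes are limited by their counts.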
